A study of Medicago truncatula with 6 samples.

Results

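Root hairs of Medicago truncatula treated with Nod factor for 4 h (NF 4 h) were compared with water-treated root hairs (control), and the early response is described here by the function of the genes. Both NF 4 h libraries (replicates 1 and 2) were set against the control library that was analysed, replicate 2. Replicate 1 of the control is not analysed here, which leaves the control without an SD. Of the 50897 transcripts listed, 17019 had a mean of at least 1 CPM (read pairs scaled to 1000000 counted pairs of the library) over the 3 libraries, and these are the genes described. In 5282 of them (31.0%) both NF 4 h libraries lay above the control, and in 6760 (39.7%) both lay below it. With TMM factors in place of the sum of pairs as the scale, the same genes gave 6243 above and 5756 below, so the balance of small differences depends on the scaling. At least 1.5-fold from the control were 3.96% above and 3.26% below, and at least 2-fold 2.13% above and 1.23% below.

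All groups were wild type A17 seedlings, 5 days old, grown on Fahraeus medium. NF 4 h plants received 50 µl each of 10 nM synthetic Nod factor for 4 h, NF 20 h plants the same for 20 h, and control plants sterile water. The label of the control carries 4 h. Each sample was the root hair RNA pooled from 100 plants, taken from 4 cm root segments without the tip. A library thus averages many plants and may hold other cells that came off with the hairs. From the absence of transcripts of the stele gene MtSUNN, the paper inferred no substantial contamination by inner root cells. In total, 5 libraries were used, and the NF 20 h pair served to estimate the spread between replicates and to place the 4 h response in time. The NF 4 h libraries held 43351542 and 39199411 counted pairs, against 45591207 in the control. A count of 3 pairs, taken as the floor, corresponded to 0.0692 and 0.0765 CPM in the NF 4 h libraries and 0.0658 CPM in the control.

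Nod factors are lipochitooligosaccharides released by rhizobia. Legume root hairs perceive them with receptor kinases that carry LysM domains, and the signal reaches the nucleus as calcium oscillations, which are decoded by a calcium- and calmodulin-dependent kinase and its partner cyclops. The GRAS proteins NSP1 and NSP2, the AP2-type ERN factors, NIN and the NF-Y complex then control the genes by which the hair curls and forms an infection thread. Hormone pathways, mainly cytokinin, auxin and gibberellin, are known to act downstream and alongside.

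Genes were tested with the quasi-likelihood test of edgeR in 1 fit of the 5 libraries, and genes with an adjusted p (Benjamini-Hochberg) under 0.05 are termed called. Of the 17019 genes, 113 were called higher in NF 4 h (0.664%) and 33 were called lower (0.194%). In each of these 146 genes (0.858%) both NF 4 h libraries lay on the side of the call. The genes called higher had a median fold change of 9.33 and the smallest was 2.48-fold. The genes called lower stood at a median of 16.8-fold below the control, and the smallest difference was 2.56-fold. The smallest adjusted p was 0.0206, and no gene passed at 0.01. With no replicate of the control, the test holds the spread of the NF pairs against 1 control value. Values after ± are standard errors of the log2 fold change, derived from the statistic of this test. They do not measure any spread between control samples. Over all 22091 genes tested, 151 were called (0.684%), against 210 without NF 4 h replicate 1, 311 without NF 4 h replicate 2, and 334 or 366 without NF 20 h replicate 1 or 2.

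**Figure D1:**
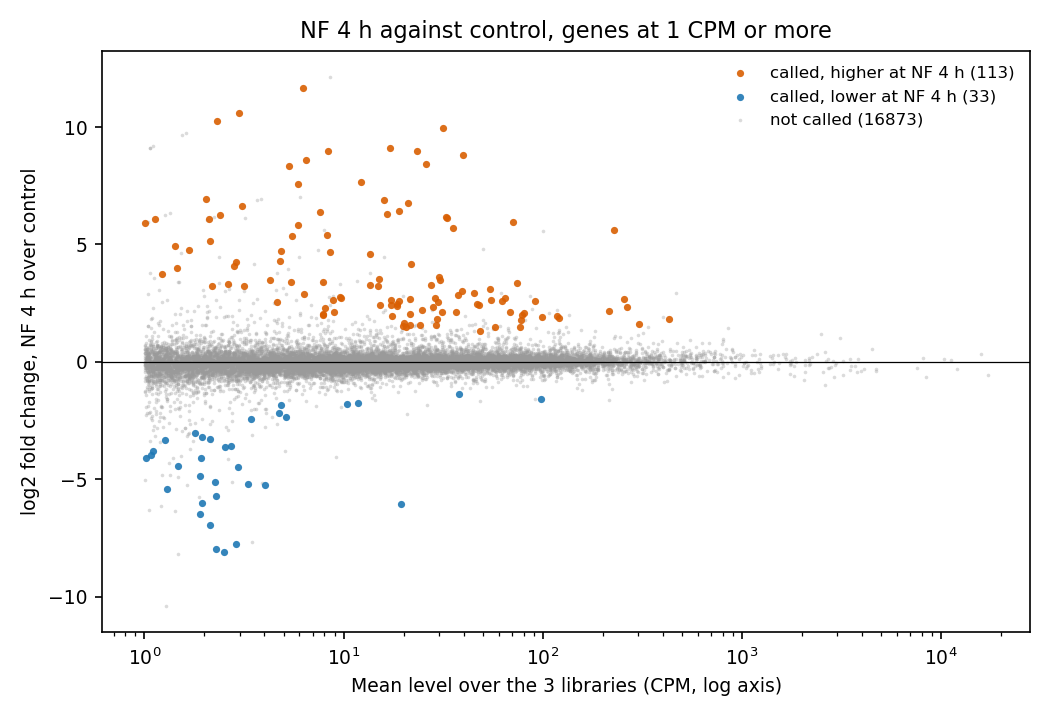
Log2 fold change of NF 4 h over the control (vertical axis) against the mean level over the 3 libraries in CPM (horizontal log axis) for 17019 genes, 1 point per gene, with called genes in colour. The 113 genes called higher spread over low and high levels, while most of the 33 called lower have a mean under 10 CPM.

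The samples carried root hair transcripts. MtRbohD (Medtr3g098320), closest to the Arabidopsis NADPH oxidase of root hair growth, had 626 and 586 CPM in NF 4 h and 782 CPM in the control, and an extensin-like gene (Medtr6g034905) had 2644 and 2473 CPM in NF 4 h and 3097 CPM in the control. Neither was called (adjusted p = 0.90 and 0.85). Of the 1117 measured orthologs of Arabidopsis root hair genes, 5 were called higher and 2 lower, and their median log2 fold change was 0.03, against -0.02 over all genes described. Markers of other cells were detected too, and none of those named here was at 0 in any NF 4 h or control library. MtSCR (Medtr1g069725), a GRAS factor of the endodermis, had 40.4 and 36.7 CPM in NF 4 h, against 7.52 CPM in the control (log2 fold change 2.36 ± 0.24, adjusted p = 0.032). MtSHR (Medtr5g015490), a GRAS factor of the stele, had 2.70 and 1.45 CPM in NF 4 h and 0.417 CPM in the control and was not called (adjusted p = 0.21). Summed, these 2 markers had 43.1 and 38.1 CPM in NF 4 h, against 7.94 CPM in the control. The 8 genes of dividing cells summed to 29.3 and 20.6 CPM in NF 4 h, against 19.02 CPM in the control. Of the 7 measured at 1 CPM or more, however, 3 lay above the control and 4 below it, with a median log2 fold change of -0.60. In bulk RNA, a change in the number of cells of a type and a change in RNA per cell cannot be told apart. The part of such cells in the results below was not tested.

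Primers that the study designed for RT-qPCR identify 4 of the genes called higher, and are shown because a receptor, a transcription factor, a secreted inhibitor and a transporter among the increases below can be traced by them. Each is written 5′ to 3′ and no base is singled out.
MtLYK10 (Medtr5g033490) forward: agaaggtgtctacaagatgg
MtLYK10 (Medtr5g033490) reverse: cactgccacaacgatctc
MtNSP1 (Medtr8g020840) forward: cacccttcacatccttgaca
MtNSP1 (Medtr8g020840) reverse: taaggcgaacaagaggagga
Proteinase inhibitor (Medtr5g045470) forward: tcaatggagaagcagcag
Proteinase inhibitor (Medtr5g045470) reverse: acacgaactctgtcacac
ABC transporter B (Medtr4g081190) forward: atggaaatcaatggtggagaagg
ABC transporter B (Medtr4g081190) reverse: ctggatagaatatgagtaaggcgt

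At the level of perception, 2 LysM receptors of low level in the control were called higher. The receptors with the highest levels in the control were not called. MtLYK10, a LysM receptor kinase whose Lotus japonicus counterpart binds rhizobial exopolysaccharide, had 31.5 and 17.6 CPM in NF 4 h, against 0.307 CPM in the control (log2 fold change 6.31 ± 0.60, adjusted p = 0.029). A second LysM receptor-like kinase, Medtr4g058570, had 3.94 and 3.16 CPM in NF 4 h, against 0.0439 CPM in the control, which is 2 pairs. The ratio of its summed NF 4 h pairs to the control pairs, scaled by library totals (pooled ratio), was 81.5-fold, with a 95% exact binomial interval of 22.4 to 676 that covers counting error only (adjusted p = 0.030). MtLYR6 (Medtr7g079320) lay higher in both NF 4 h libraries, 4.38 and 2.81 CPM against 0.439 CPM, and missed the threshold (adjusted p = 0.070). The LysM receptor kinase K1B (Medtr5g086130) had 218 and 179.6 CPM in NF 4 h and 237 CPM in the control. The nodulation receptor kinase-like gene (Medtr5g030920), an LRR kinase of the common symbiosis pathway, had 596 and 503 CPM in NF 4 h and 408 CPM in the control. Per length, the last was the most abundant gene of the perception list, at 152 CPM per kilobase in NF 4 h and 113 in the control, and neither of these receptors was called (adjusted p = 0.92 and 0.70). MtLYR4 (Medtr5g085790), a LysM receptor-like kinase, and MtLYM2 (Medtr4g094730), a GPI-anchored LysM protein of chitin perception in other plants, lay below the control in both NF 4 h libraries and were not called (adjusted p = 0.47 and 0.37). MtPUB1 (Medtr5g083030), a U-box ubiquitin ligase that interacts with a LysM receptor kinase and restrains infection, had 179 and 135 CPM in NF 4 h, against 40.6 CPM in the control (log2 fold change 1.95 ± 0.23, adjusted p = 0.040). The counts of this list were 4 above and 4 below the control, and 2 of the 9 genes of this list were called higher and 0 lower. Of 15 measured genes annotated as LysM receptors, 4 lay above the control in both NF 4 h libraries and 8 below it. Their median log2 fold change was -0.26, and 2 were called higher, where over all 4928 annotated genes 111 were called higher.

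None of the 3 genes of nuclear calcium signalling was called, and their levels were close to the control. The calmodulin-domain kinase (Medtr8g043970) had 211 and 210.5 CPM in NF 4 h and 179 CPM in the control (log2 fold change 0.24 ± 0.15, adjusted p = 0.82). The cyclops gene (Medtr5g026850), which encodes the phosphorylation target of this kinase, had 195 and 194 CPM in NF 4 h and 185 CPM in the control (adjusted p = 0.98).

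Among the transcription factors of the pathway, 9 of 10 genes lay above the control in both NF 4 h libraries, 3 were called higher and none lower. MtNSP1 (Medtr8g020840) had 62.8 and 48.7 CPM in NF 4 h, against 6.78 CPM in the control (log2 fold change 3.04 ± 0.23, adjusted p = 0.023). Its partner MtNSP2 (Medtr3g072710) had 40.5 and 37.7 CPM in NF 4 h and 38.8 CPM in the control (log2 fold change 0.01 ± 0.18, adjusted p = 1.00). MtNIN (Medtr5g099060), which is required for infection threads and nodule primordia, had 27.9 and 24.8 CPM in NF 4 h, against 4.34 CPM in the control (log2 fold change 2.60 ± 0.20, adjusted p = 0.023). MtNF-YB7 (Medtr8g091720), a subunit of the CCAAT-binding complex, had 13.5 and 13.4 CPM in NF 4 h, against 2.00 CPM in the control (log2 fold change 2.75 ± 0.34, adjusted p = 0.045). For these 3 genes both NF 4 h libraries stood well clear of the control and near each other.

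MtNF-YA1 (Medtr1g056530), the CCAAT-binding subunit that NIN controls, was not detected in the control (0 of 45591207 pairs) and had 19.4 and 6.17 CPM in NF 4 h. Against a floor of 3 pairs in the control library, NF 4 h was at least 199.7-fold higher by the pooled pairs of both libraries, at least 296-fold for replicate 1 alone and at least 93.8-fold for replicate 2 alone. The gene was not called (adjusted p = 0.066), and NF 4 h replicate 1 stood 3.15-fold above replicate 2. MtERN1 (Medtr7g085810), an AP2 factor that activates early nodulin promoters, had 87.7 and 85.1 CPM in NF 4 h and 43.1 CPM in the control and was not called (log2 fold change 1.00 ± 0.15, adjusted p = 0.070). MtERN2 (Medtr6g029180), MtNF-YA2 (Medtr7g106450) and MtNF-YC2 (Medtr7g113680), of the same families, lay between 2.06 and 2.45 times the control by fitted fold change, on the same side in both libraries, and none was called. Over all 4928 annotated genes, 111 were called higher and 11 lower. Among them, 2 of 16 GRAS genes were called higher, namely MtNSP1 and MtSCR. Of 28 MYB genes 2 were called higher, with Medtr8g101650 at 75.7 and 78.5 CPM in NF 4 h, against 9.06 CPM in the control (log2 fold change 3.09 ± 0.16, adjusted p = 0.021). The ethylene response factor Medtr4g078710 had 40.3 and 34.4 CPM in NF 4 h, against 12.6 CPM in the control (log2 fold change 1.57 ± 0.19, adjusted p = 0.046). No WRKY gene was called among 37, and a class of this size can lack a call without differing from other annotated genes. Both NF 4 h libraries lay above the control in 18 of the 37 and below it in 8.

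**Figure D2:**
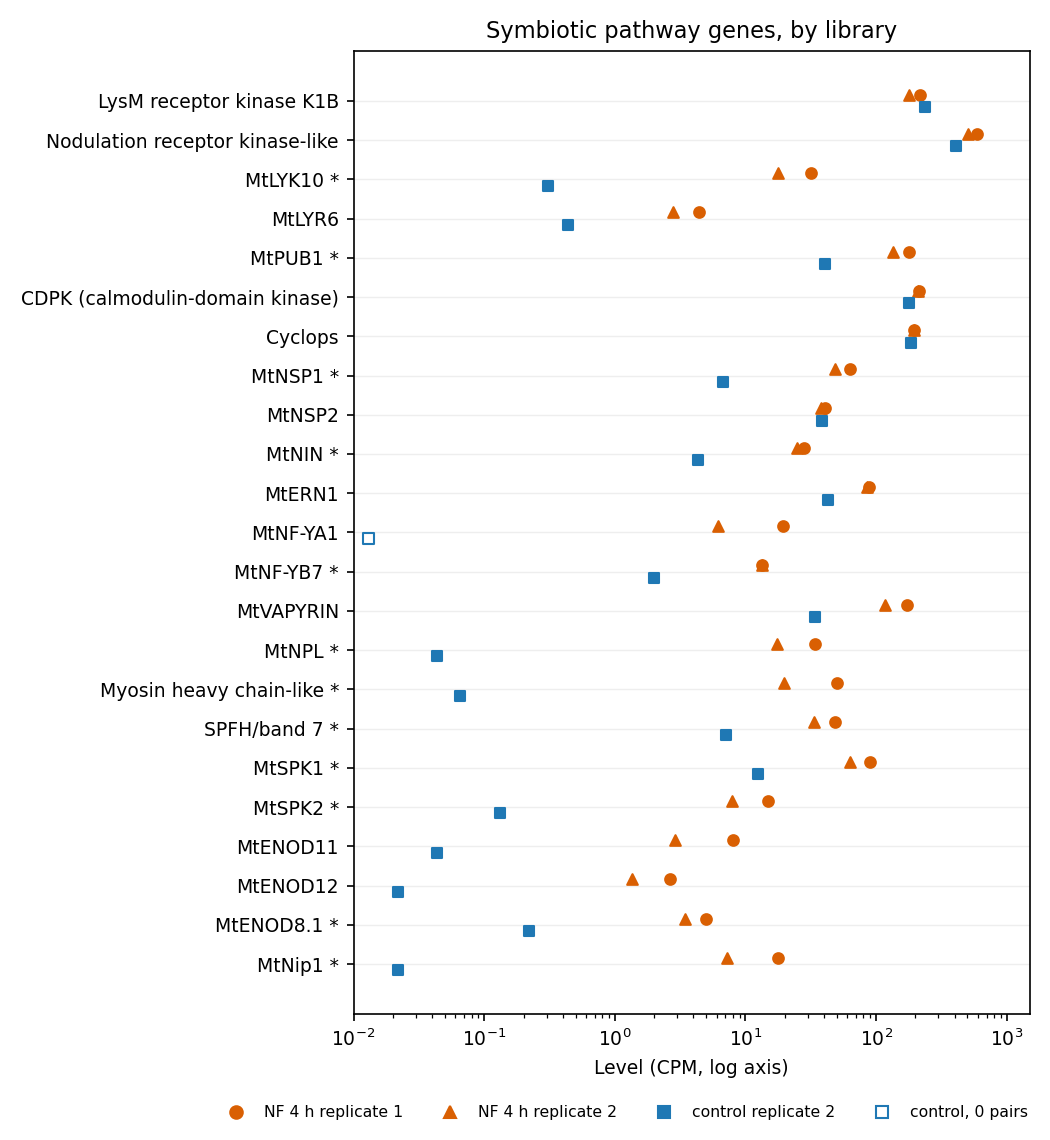
Level in CPM (log axis) of 23 genes of perception, calcium signalling, transcription, infection and early nodulin lists in the 2 NF 4 h libraries (circle and triangle) and the control library (square), with an asterisk for called genes and an open square, placed at the left edge, for the control value of 0 pairs of MtNF-YA1. The points of the calmodulin-domain kinase and cyclops nearly coincide, while MtLYK10, MtNPL and MtNip1 stand more than 10-fold above it in both NF 4 h libraries.

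All 11 genes of the infection list lay above the control in both NF 4 h libraries, 10 of them at least 2-fold, and 5 were called higher. The list was chosen with earlier results of these data known. MtNPL (Medtr3g086320), a pectate lyase that loosens the wall where the infection thread starts, had 34.0 and 17.4 CPM in NF 4 h, against 0.0439 CPM in the control, which is 2 pairs. Its pooled ratio was 596-fold (adjusted p = 0.032), with an interval of 165 to 4921. A myosin heavy chain-like gene (Medtr1g090807) had 50.3 and 19.6 CPM in NF 4 h, against 0.0658 CPM in the control, a pooled ratio of 543-fold (interval 186 to 2637, adjusted p = 0.038). A gene of the SPFH/band 7 family (Medtr3g106430), whose members are scaffolds of membrane microdomains, had 48.5 and 33.5 CPM in NF 4 h, against 7.04 CPM in the control (log2 fold change 2.54 ± 0.29, adjusted p = 0.038).

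The symbiosis kinases MtSPK1 (Medtr4g129010) and MtSPK2 (Medtr8g074920) were both called higher. MtSPK1 had 90.0 and 63.1 CPM in NF 4 h, against 12.4 CPM in the control (log2 fold change 2.62 ± 0.31, adjusted p = 0.041). MtSPK2 had 14.8 and 7.88 CPM in NF 4 h, against 0.132 CPM in the control (log2 fold change 6.40 ± 0.66, adjusted p = 0.033). MtVAPYRIN (Medtr6g027840), an ankyrin-repeat protein of infection thread growth, had 172 and 118 CPM in NF 4 h, against 34.3 CPM in the control, and missed the threshold (adjusted p = 0.091). The LIN-like ubiquitin ligase on the list (Medtr1g090320) had 459 and 364 CPM in NF 4 h and 335 CPM in the control (adjusted p = 0.92), while another LIN-like gene, Medtr8g103227, had 37.7 and 25.5 CPM in NF 4 h, against 1.75 CPM in the control (log2 fold change 4.17 ± 0.43, adjusted p = 0.033). The ABIL1-like gene Medtr7g116710, of a family that regulates actin assembly in other plants, had 7.47 and 5.61 CPM in NF 4 h and 2.76 CPM in the control (adjusted p = 0.16).

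Of the 6 early nodulins on the list, 5 lay above the control in both NF 4 h libraries and 2 were called higher. This list, too, was chosen with earlier results of these data known. Of 22 measured genes annotated as early nodulins, 13 lay above the control in both NF 4 h libraries and 7 below it. In this wider class 0 were called, and the median log2 fold change was 0.21. MtENOD11, MtENOD12 and MtNip1 had 1 or 2 pairs in the control. MtENOD11 (Medtr3g415670), a cell wall protein used as a marker of Nod factor perception, had 8.05 and 2.88 CPM in NF 4 h and 0.0439 CPM in the control, a pooled ratio of 128-fold (interval 35.1 to 1057). It missed the threshold (adjusted p = 0.086), with replicate 1 at 2.79 times replicate 2. MtENOD12 (Medtr3g415650) had 2.65 and 1.35 CPM in NF 4 h and 0.0219 CPM in the control and was not called (adjusted p = 0.062). MtENOD8.1 (Medtr1g030275), annotated as a lipase or acylhydrolase, was called, with 4.98 and 3.47 CPM in NF 4 h, against 0.219 CPM in the control (log2 fold change 4.25 ± 0.50, adjusted p = 0.040). MtNip1 (Medtr8g087710), an intrinsic protein of the nodulin 26 group, was called with 17.7 and 7.27 CPM in NF 4 h, against 1 pair in the control (0.0219 CPM), a pooled ratio of 582-fold (interval 104 to 23013, adjusted p = 0.045). A nodule-specific glycine-rich peptide (Medtr2g069245), a class otherwise known from nodules, also had 1 pair in the control and had 3.88 and 2.19 CPM in NF 4 h (adjusted p = 0.046). MtN8 (Medtr1g074410) lay below the control in both NF 4 h libraries and was not called (adjusted p = 0.57).

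Genes of gibberellin, cytokinin and auxin were called at single steps. Of the 3 lists, 1 of 3, 2 of 11 and 1 of 7 measured genes were called higher and none lower. Gibberellin 2-oxidases inactivate gibberellins, and both members that were called rose. Medtr1g086550 had 66.9 and 60.4 CPM in NF 4 h, against 8.27 CPM in the control (log2 fold change 2.94 ± 0.19, adjusted p = 0.021), and Medtr4g074130 had 20.8 and 17.9 CPM in NF 4 h, against 1.97 CPM in the control (log2 fold change 3.29 ± 0.26, adjusted p = 0.023). The gibberellin 20-oxidase Medtr3g096500, an enzyme of the opposite, synthetic step, had 36.8 and 22.2 CPM in NF 4 h and 4.96 CPM in the control and was not called (adjusted p = 0.14).

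For cytokinin, the isopentenyltransferase MtIPT5 (Medtr2g022140), which makes the first intermediate of synthesis, had 8.70 and 5.26 CPM in NF 4 h, against 0.351 CPM in the control (log2 fold change 4.30 ± 0.48, adjusted p = 0.037). Medtr6g017325, tabulated by the study as CKX and annotated as a cytochrome P450 of family 709, had 2.49 and 1.76 CPM in NF 4 h, against 0.132 CPM in the control (log2 fold change 3.99 ± 0.45, adjusted p = 0.038). The cytokinin receptor MtCRE1 (Medtr8g106150) had 82.4 and 64.0 CPM in NF 4 h and 59.6 CPM in the control (adjusted p = 0.91). Of the type A response regulators, which damp the cytokinin response, none was called, and the ARR5-type gene Medtr3g078613 had 45.1 and 44.4 CPM in NF 4 h and 20.4 CPM in the control (adjusted p = 0.084). In auxin, the LOB domain factor LBD16 (Medtr7g096530), known for lateral root initiation in Arabidopsis, had 5.14 and 3.04 CPM in NF 4 h, against 0.241 CPM in the control (log2 fold change 4.07 ± 0.49, adjusted p = 0.044). An auxin response factor outside the list, Medtr5g067350, had 27.6 and 20.2 CPM in NF 4 h, against 4.39 CPM in the control (log2 fold change 2.44 ± 0.27, adjusted p = 0.037).

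Other genes of hormone and signal metabolism, named after their values were seen, also rose. The D27-type carotene isomerase Medtr1g471050, an early enzyme of strigolactone synthesis, had 47.4 and 36.3 CPM in NF 4 h, against 9.48 CPM in the control (log2 fold change 2.14 ± 0.22, adjusted p = 0.033). A salicylic acid carboxyl methyltransferase (Medtr6g056070) had 105 and 105 CPM in NF 4 h, against 26.6 CPM in the control (log2 fold change 1.98 ± 0.18, adjusted p = 0.028). MtMAPKKK15 (Medtr2g023890), a kinase of the MAP kinase cascade, had 11.4 and 9.46 CPM in NF 4 h, against 2.61 CPM in the control (log2 fold change 2.00 ± 0.24, adjusted p = 0.041). The protein phosphatase 2C gene Medtr1g075730, of a family that includes brakes of abscisic acid signalling, had 67.0 and 61.1 CPM in NF 4 h, against 11.5 CPM in the control (log2 fold change 2.48 ± 0.20, adjusted p = 0.023).

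Cell wall and secreted proteins gave some of the largest changes. The expansin-like gene Medtr0118s0070 had 67.1 and 27.3 CPM in NF 4 h, against 0.0439 CPM in the control, which is 2 pairs, and a pooled ratio of 1099-fold (interval 304 to 9076, adjusted p = 0.037). Expansins loosen the wall of growing cells. Of 15 measured genes annotated as glycoside hydrolase 18 or chitinase, 2 were called higher and 0 lower. Both NF 4 h libraries lay above the control in 6 of the 15 and below it in 8, with a median log2 fold change of -0.27. Over all 4928 annotated genes, 111 were called higher and 11 lower. A pair of glycoside hydrolase 18 genes with neighbouring identifiers, a family that includes chitinases able to cleave Nod factors, rose together. Medtr4g117000 had 40.0 and 23.1 CPM in NF 4 h, against 0.285 CPM in the control (log2 fold change 6.78 ± 0.53, adjusted p = 0.023), and Medtr4g116990 had 23.6 and 18.7 CPM in NF 4 h, against 2.24 CPM in the control (log2 fold change 3.24 ± 0.28, adjusted p = 0.024). The tubulin gene MtTubb1 (Medtr8g107250), of the cytoskeleton, had 398 and 310.4 CPM in NF 4 h, against 54.7 CPM in the control (log2 fold change 2.69 ± 0.23, adjusted p = 0.024). Of 8 xyloglucan endotransglucosylase genes and 20 extensin or proline-rich genes with annotation, none was called.

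Single genes of defence-related secreted proteins were called higher. The defensin-like gene Medtr8g012795 had 421 and 255 CPM in NF 4 h, against 6.87 CPM in the control (log2 fold change 5.62 ± 0.44, adjusted p = 0.023). The proteinase inhibitor Medtr5g045470 had 68.9 and 50.2 CPM in NF 4 h, against 0.132 CPM in the control, which is 6 pairs (log2 fold change 8.79 ± 0.41, adjusted p = 0.021). The Kunitz-type inhibitor Medtr6g045097 was not detected in the control and had 5.19 and 3.80 CPM in NF 4 h, at least 68.9-fold higher against the floor by pooled pairs and at least 57.8-fold for replicate 2 alone. Of 38 annotated defensin and pathogenesis-related genes 13 lay above the control in both NF 4 h libraries and 19 below it, with a median log2 fold change of -0.12, and 1 was called higher and 1 lower (Medtr6g033450, a Bet v I type protein). Of 87 NBS-LRR resistance genes 1 was called higher, but 47 lay above the control in both libraries and 18 below it. Calcium-binding and calmodulin-binding genes had a like balance, with 38 of 61 above and 8 below, and 2 called higher, where over all annotated genes 42.4% lay above and 31.6% below and 111 of 4928 were called higher. The members called were an EF hand protein (Medtr5g025690), with 29.2 and 26.3 CPM in NF 4 h, against 9.21 CPM in the control (log2 fold change 1.59 ± 0.18, adjusted p = 0.037), and an IQ calmodulin-binding protein (Medtr7g114870), with 10.3 and 7.40 CPM in NF 4 h, against 2 pairs or 0.0439 CPM in the control, a pooled ratio of 204-fold (interval 56.1 to 1684). The NBS-LRR gene called was Medtr3g012310, with 30.1 and 20.4 CPM in NF 4 h, against 4.83 CPM in the control (log2 fold change 2.39 ± 0.29, adjusted p = 0.046).

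Receptor-like kinases, the largest of the annotated classes, gave the most calls. Of 186 members, 77 lay above the control in both NF 4 h libraries and 82 below it (84 and 75 with TMM factors). In this class 9 were called higher and 1 lower, where over all 4928 annotated genes 111 were called higher and 11 lower. The LRR receptor-like kinase Medtr3g078250 had 23.1 and 13.3 CPM in NF 4 h, against 0.0877 CPM in the control (log2 fold change 7.65 ± 0.70, adjusted p = 0.027). The LRR receptor-like kinase Medtr5g025850 had 60.9 and 36.0 CPM in NF 4 h, against 0.680 CPM in the control (log2 fold change 6.15 ± 0.52, adjusted p = 0.024). Other ectodomains were represented among the increases by single genes, named after their values were seen. The lectin receptor kinase Medtr8g068050 had 7.73 and 7.93 CPM in NF 4 h, against 0.746 CPM in the control (log2 fold change 3.39 ± 0.29, adjusted p = 0.024). The cysteine-rich receptor-like kinase Medtr1g021635 had 71.4 and 74.6 CPM in NF 4 h, against 26.1 CPM in the control (log2 fold change 1.49 ± 0.16, adjusted p = 0.033). Both copies tabulated as MtCRK29, Medtr1g021632 and Medtr1g021630, whose identifiers lie beside it, lay above the control and missed the threshold (adjusted p = 0.062 and 0.10). Medtr4g065850, another LRR receptor-like kinase, was the member called lower, with 2 pairs in each NF 4 h library (0.0461 and 0.0510 CPM), against 6.32 CPM in the control. The control stood 130.4-fold above NF 4 h by pooled pairs (interval 50.4 to 482, adjusted p = 0.023).

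Annotations were taken from the tables of the study and cover 29.0% of the genes described, 98.2% of those called higher and 33.3% of those called lower. A part of these tables was drawn up from genes that responded in these samples, so the counts of annotated classes are not independent evidence of a direction. The symbiosis and hormone lists were chosen with earlier results of these data known, so their counts are not independent evidence of a direction either. The transport and redox families are listed by family and not by response.

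Membrane transport changed at single members of families. Over the 124 genes of the transport families at 1 CPM or more, 5 were called higher and 0 lower, against 0.664% and 0.194% over all genes described. Both NF 4 h libraries lay above the control in 48 of them and below it in 51. With TMM factors these were 52 above and 44 below. The median log2 fold change was 0.03. For the 26 measured peptide and nitrate transporters of the NPF family, 15 were above, 8 below and none called.

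Among the called members of these families MtAHA1 (Medtr8g006790), a plasma membrane proton pump, had the largest log2 fold change, with 65.0 and 33.0 CPM in NF 4 h, against 0.702 CPM in the control (log2 fold change 6.12 ± 0.69, adjusted p = 0.038). MtAHA4 (Medtr4g127710), the most abundant pump per length (270.3 CPM per kilobase in NF 4 h and 269.9 in the control), had 1004 and 1102 CPM in NF 4 h and 1051 CPM in the control (adjusted p = 1.00). MtAHA5 (Medtr2g036650) lay below, with 119 and 135 CPM in NF 4 h and 389.9 CPM in the control, and was not called (log2 fold change -1.62 ± 0.28, adjusted p = 0.098).

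Nitrate uptake and assimilation genes were called higher at 2 transporters and, among genes outside the rule for named genes and chosen after their values were seen, at 2 enzymes. The high-affinity nitrate transporter MtNRT2.1 (Medtr4g057890) had 143 and 119 CPM in NF 4 h, against 34.9 CPM in the control (log2 fold change 1.91 ± 0.19, adjusted p = 0.030). Its partner protein MtNAR2.2 (Medtr4g104700) had 32.6 and 34.1 CPM in NF 4 h, against 7.24 CPM in the control (log2 fold change 2.20 ± 0.22, adjusted p = 0.030). MtNRT2.2 (Medtr4g057865) and MtNAR2.1 (Medtr4g104730) lay above the control in both libraries and missed the threshold (adjusted p = 0.087 and 0.058). Read pairs that fit more than 1 transcript equally well were left out of the counts, and how many pairs members of such gene families lost was not tested. The ferredoxin-nitrite reductase Medtr4g086020, which reduces nitrite in plastids, had 10.1 and 6.30 CPM in NF 4 h, against 0.197 CPM in the control (log2 fold change 5.36 ± 0.60, adjusted p = 0.037). The plastid-type glutamine synthetase MtGS2a (Medtr2g021255) had 45.2 and 41.4 CPM in NF 4 h, against 3.49 CPM in the control (log2 fold change 3.63 ± 0.29, adjusted p = 0.023). Of the 4 measured ammonium transporters, Medtr1g079760 had 15.1 and 12.02 CPM in NF 4 h, against 2.06 CPM in the control (log2 fold change 2.72 ± 0.26, adjusted p = 0.029), while MtAMT1;1 (Medtr1g045550), the most abundant of the family per length, had 213 and 231 CPM in NF 4 h and 277 CPM in the control (adjusted p = 0.67).

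Potassium, phosphate and sulfate families held 1 called member, among the 12 measured genes of the HAK/KUP potassium transporter family. Over all genes described 0.664% were called higher and 0.194% lower. The potassium transporter KUP8 (Medtr6g007697) had 106 and 90.5 CPM in NF 4 h, against 35.4 CPM in the control (log2 fold change 1.47 ± 0.18, adjusted p = 0.043), and without NF 4 h replicate 1 its adjusted p was 0.065. Genes with adjacent identifiers were called too. The kinase Medtr6g007690 had 9.20 and 6.66 CPM in NF 4 h, against 1 pair or 0.0219 CPM in the control, a pooled ratio of 365-fold (interval 65.2 to 14419). The ZIP zinc and iron transporter Medtr6g007687 had 1.499 and 1.51 CPM in NF 4 h, against 1 pair in the control, a pooled ratio of 68.5-fold (interval 12.1 to 2726). Of 4 measured sulfate transporters 3 lay below the control in both NF 4 h libraries and 1 above it. ST2 (Medtr2g008470) had 56.6 and 37.3 CPM in NF 4 h and 84.4 CPM in the control and was not called (adjusted p = 0.91). The member above, MtSULTR3.4b (Medtr4g011970), had 8.65 and 4.72 CPM in NF 4 h and 0.483 CPM in the control and missed the threshold (adjusted p = 0.076). Of 6 measured phosphate transporters 2 lay above the control and 3 below it. MtPT1 (Medtr1g043220) had 55.7 and 59.4 CPM in NF 4 h and 39.5 CPM in the control and was not called (adjusted p = 0.30). MtPT6 (Medtr3g082700) lay below the control, with 48.5 and 62.0 CPM in NF 4 h and 109.9 CPM in the control, and was not called (adjusted p = 0.13). The Shaker potassium channels AKT1-like, KC1-like and GORK/SKOR-like had log2 fold changes between -0.57 and 0.17, and none was called.

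ABC transporters, which move hormones and secondary compounds, gave 3 calls among 32 annotated members, all of them increases. Both NF 4 h libraries lay above the control in 11 members, however, and below it in 17. Over all 4928 annotated genes, 111 were called higher and 11 lower. Medtr4g081190, of the B family, had 125 and 85.1 CPM in NF 4 h, against 1.69 CPM in the control (log2 fold change 5.96 ± 0.47, adjusted p = 0.023), and Medtr8g022270, of the same family, had 124 and 87.9 CPM in NF 4 h, against 10.2 CPM in the control (log2 fold change 3.38 ± 0.36, adjusted p = 0.035). The MRP type gene Medtr3g086430 had 11.2 and 8.21 CPM in NF 4 h, against 1 pair in the control, a pooled ratio of 446-fold (interval 79.8 to 17625). Channels of calcium and mechanical signalling were not called. Neither the 9 measured cyclic nucleotide-gated channels, nor the 10 glutamate receptors, nor the 9 OSCA genes and 2 PIEZO genes held a called member. Over all genes described 0.858% were called, so families of this size can lack a call without differing from other genes. The medians of these families were 0.00, -0.12, -0.08 and -0.01 on the log2 scale. MtAnn1 (Medtr8g038210), an annexin induced in nodulation, had 12.7 and 4.85 CPM in NF 4 h and 0.395 CPM in the control and was not called (adjusted p = 0.16), with replicate 1 at 2.62 times replicate 2.

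The largest gains in CPM included metabolic genes and genes of no known role. Medtr1g099150, annotated as a hypothetical protein, gained most, with 604 and 527 CPM in NF 4 h, against 161 CPM in the control (log2 fold change 1.82 ± 0.21, adjusted p = 0.040). The hyoscyamine 6-dioxygenase-like gene Medtr1g070135 had 401 and 383 CPM in NF 4 h, against 126 CPM in the control (log2 fold change 1.63 ± 0.17, adjusted p = 0.034). Both lost the call without NF 4 h replicate 1 (adjusted p = 0.078 and 0.057). A cysteine synthase or cyanoalanine synthase (Medtr7g078070), an enzyme of sulfur and cyanide metabolism, had 321 and 258 CPM in NF 4 h, against 64.9 CPM in the control (log2 fold change 2.16 ± 0.21, adjusted p = 0.030). A late embryogenesis abundant protein gene (Medtr1g088230), of a class known for desiccation tolerance, had 126 and 128 CPM in NF 4 h, against 20.9 CPM in the control (log2 fold change 2.60 ± 0.24, adjusted p = 0.027). The DUF4228 gene Medtr4g097220 had 384 and 335 CPM in NF 4 h, against 71.2 CPM in the control (log2 fold change 2.34 ± 0.20, adjusted p = 0.024).

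Carbonic anhydrases interconvert carbon dioxide and bicarbonate, and 2 genes of this family that were called higher are given here. They were chosen after their values were seen, and the other members of the family were not counted. Medtr8g064630 had 11.5 and 13.7 CPM in NF 4 h, against 0.483 CPM in the control (log2 fold change 4.70 ± 0.28, adjusted p = 0.021), and Medtr1g062860 had 5.97 and 3.24 CPM in NF 4 h, against 2 pairs in the control, a pooled ratio of 107-fold (interval 29.3 to 883). UDP-glucosyltransferases, which attach sugars to hormones and secondary compounds, gave 2 calls among 33 annotated genes, both of them increases. Over all 4928 annotated genes, 111 were called higher and 11 lower. The larger of the 2 by level was Medtr7g070940, with 44.0 and 34.3 CPM in NF 4 h, against 4.04 CPM in the control (log2 fold change 3.28 ± 0.24, adjusted p = 0.023). The leucoanthocyanidin dioxygenase-like gene Medtr1g062110, outside the flavonoid class and also chosen after its values were seen, had 24.5 and 27.7 CPM in NF 4 h, against 8.23 CPM in the control (log2 fold change 1.67 ± 0.18, adjusted p = 0.037). No member of the flavonoid and monolignol classes was called. Of 45 annotated flavonoid genes 18 lay above and 22 below the control (20 and 19 with TMM factors), and of 32 monolignol genes 8 lay above and 18 below.

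**Figure D3:**
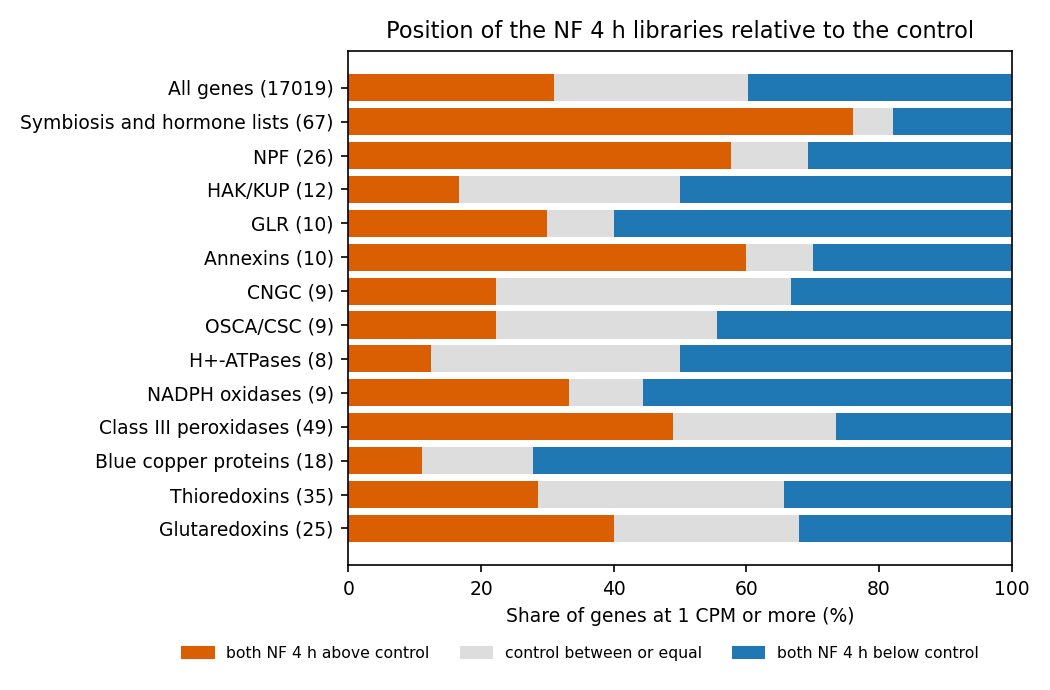
Share of genes (percent, horizontal axis) for which both NF 4 h libraries lie above the control, below it or with the control between them, for all 17019 genes, the pathway lists and 12 families with at least 8 genes at 1 CPM or more (numbers in parentheses). The pathway lists hold 51 of 67 genes above the control, against 31.0% for all genes and 42.4% for annotated genes. These lists were chosen with earlier results of these data known, so their share is not independent evidence. Blue copper proteins lie mostly below (13 of 18).

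Redox genes gave 1 call. Of the 171 genes of the redox families at 1 CPM or more 0 were called higher and 1 lower, against 0.664% and 0.194% over all genes described. In these families 64 lay above the control and 65 below it (71 and 57 with TMM factors). None of the 9 measured NADPH oxidases, which make the superoxide of the apoplast, was called, and 5 lay below the control in both libraries. Class III peroxidases numbered 49, with 24 above, 13 below and none called. Both NF 4 h libraries lay at least 2-fold above the control in 5 of them and at least 2-fold below in 1. Over all genes described these shares were 2.13% and 1.23%. MtPrx17 (Medtr2g029740), the most abundant per length, had 3976 and 3476 CPM in NF 4 h and 1864 CPM in the control (adjusted p = 0.17), and Rip2/MtPrx39 (Medtr1g115900) had 77.0 and 53.6 CPM in NF 4 h and 18.8 CPM in the control (adjusted p = 0.070). Of 18 blue copper proteins 13 lay below the control in both NF 4 h libraries. The member called was the multicopper oxidase-like gene Medtr1g026410, with 0.438 and 0.281 CPM in NF 4 h, against 8.09 CPM in the control (log2 fold change -4.47 ± 0.44, adjusted p = 0.030).

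Most decreases were of genes at low level. For 13 of the 33 genes called lower, all 4 NF libraries (4 h and 20 h) lay under 0.5 CPM, so these calls rest on the level in 1 control library. Over all genes, 11 had 5 CPM or more in the control and under 0.5 CPM in all 4 NF libraries, and 20 had the reverse. The seed linoleate 9S-lipoxygenase Medtr8g018590, an enzyme of fatty acid oxidation, had 0.784 and 0.944 CPM in NF 4 h, against 56.7 CPM in the control (log2 fold change -6.03 ± 0.49, adjusted p = 0.023), and was the annotated gene with the largest fall among those of more than 3 pairs in each NF 4 h library. An embryo-specific protein gene (Medtr2g103670) had 1.13 and 1.63 CPM in NF 4 h, against 7.501 CPM in the control (log2 fold change -2.44 ± 0.31, adjusted p = 0.050). ABP19a (Medtr8g020610), annotated as an auxin-binding protein of the germin type, had 0.623 and 0.434 CPM in NF 4 h, against 6.51 CPM in the control (log2 fold change -3.61 ± 0.34, adjusted p = 0.029). Of the 33 genes called lower, 22 have no annotation in the tables used. Of the 5 root cap markers, 3 of 4 measured members lay below the control in both NF 4 h libraries. The root cap/late embryogenesis gene Medtr4g059670 had 0.0461 and 0.408 CPM in NF 4 h and 7.79 CPM in the control (adjusted p = 0.38), but Medtr2g080260 of the same annotation had 576 and 744 CPM in NF 4 h and 511 CPM in the control, and the root cap factor SMB (Medtr2g062730) had 8.05 and 10.8 CPM in NF 4 h and 11.3 CPM in the control. Summed over the 5 markers these were 585 and 756 CPM in NF 4 h and 536 CPM in the control. The part of such transcripts in the decreases was not tested.

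Decreases at higher levels were few. A fructose-bisphosphate aldolase of glycolysis, Medtr1g061050, was the most abundant gene called lower, with 59.5 and 59.0 CPM in NF 4 h, against 176 CPM in the control (log2 fold change -1.57 ± 0.14, adjusted p = 0.027). The 2-oxoglutarate oxygenase Medtr1g089865 had 24.1 and 26.1 CPM in NF 4 h, against 64.2 CPM in the control (log2 fold change -1.36 ± 0.14, adjusted p = 0.033), and without NF 4 h replicate 1 its adjusted p was 0.062. The ribosomal protein gene Medtr1g103100 (40S S3a-1) had 5.74 and 7.42 CPM in NF 4 h, against 22.3 CPM in the control (log2 fold change -1.76 ± 0.21, adjusted p = 0.041). Of 83 annotated ribosomal protein genes, 52 lay below the control in both libraries and 12 above it, with a median log2 fold change of -0.19, and with TMM factors 51 were below and 16 above. No DNA replication gene was called at 4 h. Of 7 measured members the 4 that lay below the control in both libraries were licensing factors of the MCM helicase, and 3 lay above it. MtAurora (Medtr3g110405), an aurora-type mitotic kinase, was highest at 17.99 and 12.3 CPM in NF 4 h and 5.92 CPM in the control (adjusted p = 0.19).

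Most increases were larger in NF 4 h replicate 1 than in replicate 2. Replicate 1 was the higher of the pair for 98 of the 113 genes called higher, with a median ratio of 1.26, while over all 17019 genes it was the higher for 45.0% (median ratio 0.978). Among the 249 genes with both libraries at least 2-fold above the control and no call, the median ratio was 1.26. The ratio was 2.46 for the expansin-like gene (Medtr0118s0070), 2.56 for the myosin heavy chain-like gene (Medtr1g090807) and 2.44 for MtNip1 (Medtr8g087710). It was 1.12 for MtNIN (Medtr5g099060), 1.01 for MtNF-YB7 (Medtr8g091720) and 0.964 for the MYB gene Medtr8g101650.

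At 20 h most of these genes lay on the same side of the control as at 4 h. All 113 genes called higher at 4 h had both NF 20 h libraries above the control, and 30 of the 33 called lower had both below it. These counts share the control library with the calls. The test of NF 20 h against NF 4 h shares the NF 4 h libraries with the calls. In it 3 of the 146 genes were called, all higher at 20 h, and no gene among them without either NF 20 h library, where the share over all genes tested was 0.0498% (0.0362% higher and 0.0136% lower in NF 20 h). The cytochrome P450 gene Medtr7g103450 had 21.9 and 18.6 CPM in NF 20 h, against 3.97 and 3.52 CPM in NF 4 h. A transcript without annotation, Medtr4g109580, had 5.43 and 4.44 CPM in NF 20 h, against 0.231 and 0.128 CPM in NF 4 h, and another, Medtr6g088715, had 3.60 and 3.002 CPM in NF 20 h, against 0.208 and 0.153 CPM in NF 4 h. By level alone, 18 of the genes called higher stood at least 2-fold lower in NF 20 h than in NF 4 h and 10 at least 2-fold higher, with a median log2 difference of -0.21. MtENOD8.1 (Medtr1g030275) had 0.905 and 1.16 CPM in NF 20 h and 4.98 and 3.47 CPM in NF 4 h, and the expansin-like gene (Medtr0118s0070) had 251 and 180.2 CPM in NF 20 h and 67.1 and 27.3 CPM in NF 4 h, but neither difference was called (adjusted p = 0.11 and 0.15).

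**Figure D4:**
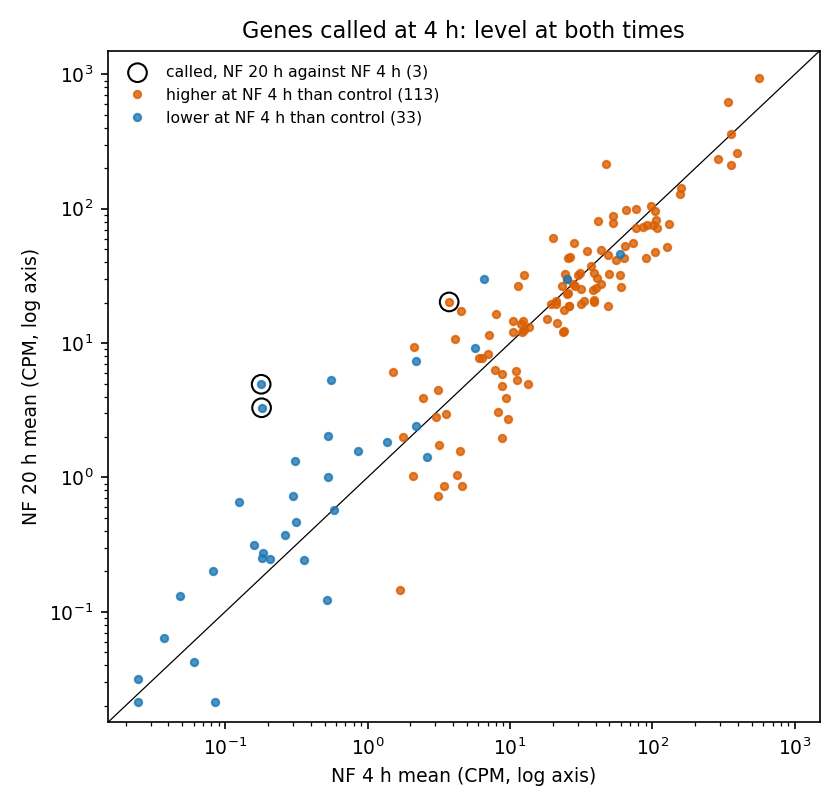
Mean level in NF 20 h (vertical log axis, CPM) against mean level in NF 4 h (horizontal log axis, CPM) for the 146 genes called at 4 h, with the diagonal of equal levels and circles around the 3 genes called between the times. Genes called higher lie along the diagonal, with 41 of 113 above it.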

How the data were processed

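Root hair RNA was sequenced as paired polyA libraries on an Illumina HiSeq instrument. Per the study's methods, the authors trimmed reads (Phred above 20, length above 30 bp), aligned them with Bowtie 2 in local mode to the Mt4.0v1 transcripts, and deposited counts per transcript of read pairs whose mates both hit that transcript, with pairs of equal best hits removed and single mates counted apart (the last are not used here). The sources differ on whether the kit marked strand, so an antisense partner may add to a gene. By their labels, the libraries analysed were 2 of NF 4 h, 2 of NF 20 h and 1 of the control. Totals ran from 39199411 to 47302574 pairs, and 0 columns of other samples were present.

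Counts were scaled to the sum of pairs per library. A quasi-likelihood fit (edgeR 4.0.16 in R 4.3.3, filterByExpr, no TMM factors, 2 residual degrees of freedom, 22091 genes) with 1 coefficient per treatment gave the tests, adjusted over all genes tested. The repeats are described as independent, and p-values measure the spread between the NF libraries only. Where the control had 0 pairs, the fold is a lower bound against a floor of 3 pairs in the control library; where a group had 1 to 3 pairs per library, the pooled ratio has an exact 95% interval (counting error only). The scripts were tested on simulated data.

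Named genes were the 15 largest changes each way by fold and 10 by CPM among called genes, called, most abundant and up to 4 most changed members of pathway and family lists, and up to 4 called members each way of 38 annotation classes. Members, lists and classes were chosen with earlier results of these data known. Gene roles rest on annotations in the study's tables, and identifiers without one were counted only. Alternatives were TMM and DESeq2 (1.42.0) scaling, the DESeq2 and edgeR exact tests, other filters, only 3 libraries, a replicate block and leaving out each NF library.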

Additional observations from a re-analysis of the deposited data

Results flagged for a closer look

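The test of NF 20 h against NF 4 h called 3 of the genes called at 4 h, each higher at 20 h. Medtr4g109580, without annotation and lower than the control at 4 h, had a log2 difference of 4.75 ± 0.36 (adjusted p = 0.047) between the times, and stood at 2.87 CPM in the control. Medtr6g088715, also without annotation and lower at 4 h, had a log2 difference of 4.16 ± 0.32 (adjusted p = 0.047) and stood at 5.33 CPM in the control. The cytochrome P450 gene Medtr7g103450, higher than the control at 4 h, had a log2 difference of 2.43 ± 0.18 (adjusted p = 0.047) and stood at 0.373 CPM in the control.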

How the results depend on the processing

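For genes called in NF 4 h against the control, the 151 of the reported fit became 569 with the DESeq2 Wald test, 843 with the edgeR exact test, 440 with no filter and 363 with only the 3 libraries compared, while leaving out 1 NF library gave 210 to 366. At an adjusted p under 0.01 the edgeR quasi-likelihood test called 0 genes (2051 had an unadjusted p under 0.05). None of the 7 alternative fits tabulated for the named genes (TMM factors, DESeq2, exact test, only the 3 libraries, replicate block, without either NF 4 h library) changed the sign of one. Genes on one side of the control, 12042 at any distance, were 1228 at 1.5-fold or more and 572 at 2-fold or more. Of the genes called at 4 h, those called between NF 20 h and NF 4 h were 51 by DESeq2, 52 by the exact test and 26 with no filter in place of 3, and 0 to 11 without 1 NF library, with 0 reached without either NF 20 h library (74 at an unadjusted p under 0.05 in each). The cause of these differences was not tested. Of the 84 named genes that were called, 7 lost the call without NF 4 h replicate 1, 2 without replicate 2 and 1 with only the 3 libraries. Of the named genes that were not called, 39 passed with DESeq2, 41 with the exact test, 25 with only the 3 libraries, 9 without NF 4 h replicate 1 and 20 without replicate 2.

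A fit with a replicate block called 1650 genes at 4 h, and in it 76 of the genes called at 4 h differed between the times. Of the named genes that were not called, 69 passed with the block, and all 84 that were called stayed called. The labels give the control library the number 2 but do not say that a number marks a shared batch or day. Only the NF groups have both numbers, so the pairing could be checked on 1 pair of groups, whose differences between replicates correlated at r = 0.62 across genes.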
